A study of Homo sapiens with 6 samples.

Results

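NRF2, encoded by NFE2L2, is the transcription factor that drives the main antioxidant response of human cells, and 10 genes of this response were followed in triple-negative breast cancer (TNBC) cells silenced for the kinase NEK2. The genes were listed by symbol, with no threshold on measured values, but earlier results of these data were known when the list was made. They are NFE2L2 itself, its sensor KEAP1 and the genes NQO1, HMOX1, GCLC, GCLM, TXNRD1, SRXN1, OSGIN1 and SOD2. Each was found in 1 of the 74852 rows of the deposited gene table, and the row of SRXN1 is shared with SCRT2, so that the reads of these 2 genes are not told apart. All 10 were among the 18717 genes that were tested, those whose mean over the 6 libraries reached 10 normalized counts.

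The cells were MDA-MB-231, an established line of human TNBC that is mesenchymal in character. They received either pooled siRNAs that target NEK2 (si-NEK2) or pooled control siRNAs without a target (si-CTRL), and polyA-selected RNA was sequenced in 3 libraries of each group. The sample records state that the cells were transfected on 2 occasions, whereas the methods of the study mention a single transfection and a later harvest. Each group rests on 1 siRNA pool in 1 cell line, so that loss of NEK2 and other effects of the pool cannot be told apart. The records name no batch, but those of si-CTRL refer to other sample records and those of si-NEK2 do not. Whether both groups were prepared together is thus not known, and a batch that follows the groups cannot be told apart from silencing. Nor do the records state whether the 3 libraries of a group came from separate cultures, so that p-values measure only the spread between these libraries.

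In unstressed cells KEAP1 holds NRF2 in the cytoplasm and hands it to a CUL3 ubiquitin ligase for degradation. Oxidants and electrophiles modify cysteines of KEAP1, after which NRF2 accumulates, pairs with small MAF proteins and binds antioxidant response elements near its target genes. This control acts mostly on the NRF2 protein, which RNA sequencing does not measure. The targets make glutathione, reduce thioredoxin and quinones, and break down heme. BACH1 is a heme-sensing repressor that competes for the same elements, HMOX1 being its best known target. SOD2, the manganese superoxide dismutase of mitochondria, belongs to the antioxidant defence but is best known as a target of NF-kB.

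After silencing of NEK2, HMOX1, GCLC and GCLM rose and SOD2 and OSGIN1 fell, whereas NQO1, TXNRD1, SRXN1, KEAP1 and NFE2L2 itself stayed below a fold change of 1.5. A gene was called when its limma p-value, not adjusted, did not exceed 0.05 and its level changed by 1.5-fold or more, the limits that the methods give. By this rule 5 of the 10 genes were called, against 22.5% of all genes tested. Of them 3 were higher, against 8.23% of genes tested, and 2 were lower, against 14.3%. The log2 fold changes ran from -1.25 for SOD2 to 1.07 for HMOX1, with a median of -0.07 over the 10 genes and of 0.01 over all genes tested. In 9 of the 10 genes the si-CTRL and si-NEK2 libraries did not overlap, but this also held for 55.0% of all genes tested. When both thresholds were replaced by a p-value adjusted over all genes (Benjamini-Hochberg) of 0.05 or less, 6 of the 10 genes passed, 3 of them higher and 3 lower, against 43.1% of all genes tested (21.8% higher and 21.3% lower). In RNA from whole cultures, fewer cells that express a gene and less RNA per cell cannot be told apart.

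**Figure D1:**
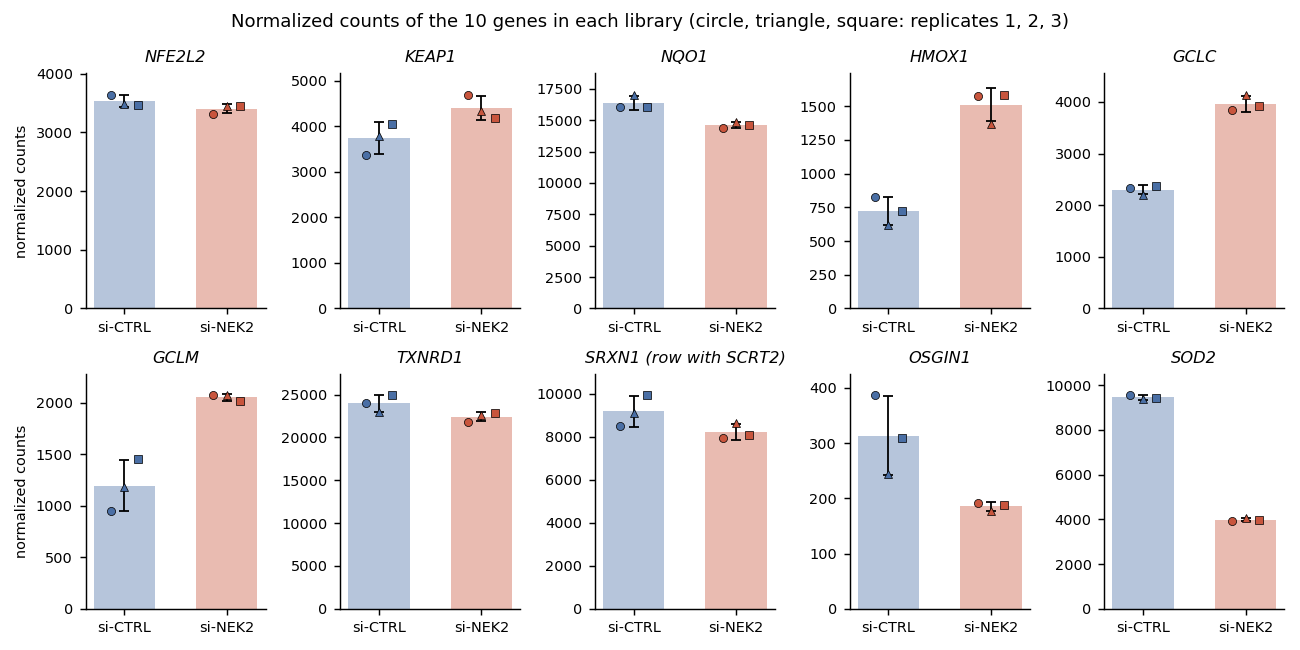
Normalized counts (y axis, linear, from 0) of the 10 genes in the 3 si-CTRL and 3 si-NEK2 libraries. Bars are group means, error bars are SD (n = 3) and symbols are libraries. HMOX1, GCLC and GCLM were higher in every si-NEK2 library than in any si-CTRL library, SOD2 and OSGIN1 were lower in every one, and the groups of SRXN1 overlapped.

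The libraries held between 52625492 and 87454509 assigned reads, and 1 read was worth between 0.818 and 1.25 normalized counts. NEK2 itself fell from 3438 ± 229 normalized counts to 344.9 ± 54.4 (each with its SD, n = 3), or to 10% of its level. VIM, AXL, CD44 and KRT18, which mark these cells, had means between 24700.1 and 147997 normalized counts, although CD44 fell with a log2 fold change of -0.76, which was -0.58 and within a fold change of 1.5 without si-CTRL replicate 1. ESR1, PGR, CDH1 and EPCAM had means of at most 6.95, and the leukocyte, endothelial, monocyte and liver genes PTPRC, PECAM1, CD14 and ALB of at most 11.5. ERBB2, whose row is shared with MIR4728, was present at a mean of 3421 normalized counts. It rose from 2822 ± 544 in si-CTRL to 4020 ± 80.8 in si-NEK2 libraries (each with its SD, n = 3). Its log2 fold change was 0.53 (limma, adjusted p = 0.00744), within a fold change of 1.5, and reached 0.68 when single libraries were left out. The second principal component, with 16.2% of the variance, set si-CTRL replicate 1 apart, and calls of named genes that end without this library are pointed out beside the results.

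Bases upstream of the transcription start are shown for GCLC and GCLM, which both rose and encode subunits of 1 enzyme, and for the 2 genes that fell. The sequences are those of RefSeq (GRCh38.p14, minus strand for GCLM, GCLC and SOD2, plus strand for OSGIN1), read 5′ to 3′ towards the gene. They run over chr1:93909431-93909680 for GCLM, chr6:53545102-53545351 for GCLC, chr16:83952990-83953239 for OSGIN1 and chr6:159693329-159693491 for SOD2. For SOD2, which has several starts in this table, 1 is shown, without the bases that GENCODE places in exons. Capitals mark matches to TGACNNNGC, the core of the antioxidant response element, or to TGACTCA, a site of AP-1 type, on either strand. A site can match both, as TGACTCA followed by GC does. GCLC and SOD2 hold no capitals, since neither motif was found.
GCLM: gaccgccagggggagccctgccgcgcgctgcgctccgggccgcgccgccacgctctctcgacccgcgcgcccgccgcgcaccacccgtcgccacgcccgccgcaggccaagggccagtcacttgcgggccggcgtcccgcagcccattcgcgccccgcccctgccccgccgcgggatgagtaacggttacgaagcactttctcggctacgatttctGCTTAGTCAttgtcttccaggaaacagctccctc
GCLC: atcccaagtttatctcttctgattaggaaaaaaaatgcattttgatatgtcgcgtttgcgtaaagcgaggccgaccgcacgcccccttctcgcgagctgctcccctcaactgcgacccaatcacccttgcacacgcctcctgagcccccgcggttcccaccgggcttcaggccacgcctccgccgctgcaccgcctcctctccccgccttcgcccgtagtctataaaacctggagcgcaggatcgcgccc
OSGIN1: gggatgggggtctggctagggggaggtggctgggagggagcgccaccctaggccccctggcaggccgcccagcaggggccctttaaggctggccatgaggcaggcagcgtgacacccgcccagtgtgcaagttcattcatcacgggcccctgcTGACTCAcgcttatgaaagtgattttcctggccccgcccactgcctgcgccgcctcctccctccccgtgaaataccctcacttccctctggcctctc
SOD2: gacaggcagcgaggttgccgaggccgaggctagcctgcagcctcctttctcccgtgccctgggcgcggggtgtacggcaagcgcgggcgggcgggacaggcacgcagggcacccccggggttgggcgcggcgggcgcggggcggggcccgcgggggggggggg

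Windows of 300 bases, 250 before and 50 after each start, were searched for both motifs. Of the 10 genes, 9 had an entry, with 15 starts in all, and HMOX1 had none. TGACNNNGC was found at 4 of the 15 starts (26.7%) and at 13.3% of all 35116 starts in the table. These 4 starts belong to 3 genes. GCLM had a match (GCTTAGTCA) beginning 34 bases before its start. TXNRD1 had matches 99 and 8 bases before one start and 102 bases before another, and KEAP1 had them 54 and 31 bases before one of its starts. TGACTCA was found at 1 of the 15 starts, that of OSGIN1, 97 bases upstream, and at 4.95% of all starts. GCLC, which rose by about as much as GCLM, had neither motif in this window, and TXNRD1 and KEAP1, which had the element core, were not called. Elements further from the start were not searched.

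NFE2L2 (GSHG0018179, chromosome 2 from 178095031 to 178257427, hg19) encodes the factor itself. Its libraries, given here and below in the order of replicates 1 to 3, had 3645, 3491 and 3466 normalized counts in the si-CTRL libraries and 3316, 3445 and 3456 in the si-NEK2 libraries. The si-NEK2 libraries lay below the si-CTRL libraries, but by a margin that was small beside the spread within each group. The group means were 3534 ± 96.7 (SD, n = 3) for si-CTRL and 3406 ± 77.8 (SD, n = 3) for si-NEK2. With a log2 fold change of -0.05 (95% interval from -0.20 to 0.09, limma, adjusted p = 0.529), the interval holds only changes well below a fold of 1.5 in either direction. The span listed for NFE2L2 touches that of AGPS at one end, and AGPS was higher in si-NEK2 cells, with a mean of 18195 normalized counts against 11832. Whether reads of AGPS entered the row of NFE2L2 was not tested.

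KEAP1 (GSHG0015498, chromosome 19 from 10596796 to 10614243, hg19), the cysteine-rich sensor that presents NRF2 for ubiquitination, had 3377, 3799.6 and 4059 normalized counts in the si-CTRL libraries and 4699, 4328 and 4194 in the si-NEK2 libraries. All si-NEK2 libraries were above all si-CTRL libraries. The log2 fold change of 0.24 (standard error 0.09) had an adjusted p of 0.0505 in limma, and the fold change stayed below 1.5. When single libraries were left out, the adjusted p ran from 0.0339 to 0.175.

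The 2 genes of detoxification differed. NQO1 (GSHG0011942, chromosome 16 from 69743305 to 69760571, hg19) encodes the quinone reductase that serves widely as a readout of NRF2. It had 16012, 17033 and 16039.5 normalized counts in the si-CTRL libraries and 14392, 14822 and 14590.2 in the si-NEK2 libraries. Each si-NEK2 library was below each si-CTRL library, and the mean of 14602 ± 215 (SD, n = 3) was 89.2% of that in si-CTRL cells, 16361 ± 582 (SD, n = 3). Its log2 fold change was -0.16 (95% interval from -0.30 to -0.03, limma, adjusted p = 0.0494), far within a fold change of 1.5. Its adjusted p reached 0.153 when single libraries were left out.

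HMOX1 (GSHG0019980, chromosome 22 from 35776430 to 35790205, hg19), heme oxygenase 1, which opens the heme ring and releases iron, biliverdin and carbon monoxide, moved the other way. Its normalized counts were 827, 623 and 723 in the si-CTRL libraries and 1579, 1369 and 1587 in the si-NEK2 libraries. The lowest si-NEK2 library was well above the highest si-CTRL library. The mean rose from 724 ± 102 to 1511 ± 123 (each with its SD, n = 3), 2.09 times the si-CTRL level. The log2 fold change was 1.07 (standard error 0.12, limma, adjusted p = 0.000181), and 2% of the genes tested had a higher one. It was between 0.96 and 1.17 when single libraries were left out.

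Both subunits of glutamate-cysteine ligase, the enzyme that sets the rate of glutathione synthesis, rose. GCLC (GSHG0026691, chromosome 6 from 53362140 to 53409927, hg19), the catalytic subunit, had 2332, 2201 and 2367 normalized counts in the si-CTRL libraries and 3847, 4142 and 3916 in the si-NEK2 libraries. The groups were far apart, and within each group the libraries differed little. The mean rose from 2299.95 ± 87.9 to 3968 ± 154 (each with its SD, n = 3), 1.73 times the si-CTRL level, with a log2 fold change of 0.79 (standard error 0.07, limma, adjusted p = 5.52e-05).

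GCLM (GSHG0002273, chromosome 1 from 94350758 to 94375154, hg19), the modifier subunit that lowers feedback inhibition by glutathione, had 952, 1185 and 1451 normalized counts in the si-CTRL libraries and 2071, 2076 and 2016 in the si-NEK2 libraries. The si-CTRL libraries were spread widely, with replicate 1 lowest, whereas the si-NEK2 libraries were nearly equal. The mean rose from 1196 ± 249 to 2055 ± 33.0 (each with its SD, n = 3), 1.72 times the si-CTRL level. This gave a log2 fold change of 0.80 (standard error 0.14, limma, adjusted p = 0.00168), which lay between 0.65 and 0.95 when single libraries were left out.

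The thioredoxin genes among the members did not pass. TXNRD1 (GSHG0006953, chromosome 12 from 104606481 to 104744083, hg19), the cytosolic selenoenzyme that reduces thioredoxin with NADPH, had 24002, 22944 and 24954 normalized counts in the si-CTRL libraries and 21799.8, 22639.6 and 22849 in the si-NEK2 libraries. The highest si-NEK2 library was just below the lowest si-CTRL library. This was a log2 fold change of -0.10 (95% interval from -0.23 to 0.04, limma, adjusted p = 0.241).

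SRXN1, sulfiredoxin, repairs peroxiredoxins that have been overoxidized, and its row (GSHG0018940, chromosome 20 from 627270 to 656825, hg19) also carries SCRT2. This row had 8519, 9088 and 9949 normalized counts in the si-CTRL libraries and 7943, 8622 and 8079 in the si-NEK2 libraries. The groups overlapped, since si-NEK2 replicate 2 was above si-CTRL replicate 1. The log2 fold change was -0.16 (95% interval from -0.33 to 0.01, limma, adjusted p = 0.118), and without si-CTRL replicate 1 the adjusted p was 0.0124, with a log2 fold change of -0.21, still within a fold change of 1.5.

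OSGIN1 (GSHG0011404, chromosome 16 from 83982672 to 83999937, hg19), an oxidative stress-induced growth inhibitor, was at the lowest level per kilobase of the 10 genes and had 387, 244 and 309 normalized counts in the si-CTRL libraries and 192, 176 and 189 in the si-NEK2 libraries. All si-NEK2 libraries were lower, but si-CTRL varied more for this gene than for the other members, with a coefficient of variation of 22.9%. Its mean fell from 313 ± 71.8 to 186 ± 8.46 (each with its SD, n = 3), with a log2 fold change of -0.73 (standard error 0.17, limma, adjusted p = 0.00758). Without si-CTRL replicate 1, the highest si-CTRL library, the log2 fold change was -0.56 (limma, adjusted p = 0.00801), and the fold change was no longer 1.5.

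SOD2 (GSHG0027035, chromosome 6 from 160100096 to 160183565, hg19) had the largest change of the 10 genes. It had 9564, 9379 and 9415 normalized counts in the si-CTRL libraries and 3923, 4054 and 3975 in the si-NEK2 libraries. The libraries of a group were nearly equal, and the groups were far apart. Its mean fell from 9453 ± 97.7 to 3984 ± 66.0 (each with its SD, n = 3), or to 42.1% of its level. On the log2 scale the change was -1.25 (standard error 0.06, limma, adjusted p = 4.16e-06), and 3.96% of the genes tested had a lower one. It lay between -1.26 and -1.24 when single libraries were left out. The listed span of SOD2 overlaps WTAP and ACAT2. Their rows had means of 3722 and 5844 normalized counts in si-CTRL cells and of 4263 and 5784 in si-NEK2 cells, so that neither fell by a similar amount.

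**Figure D2:**
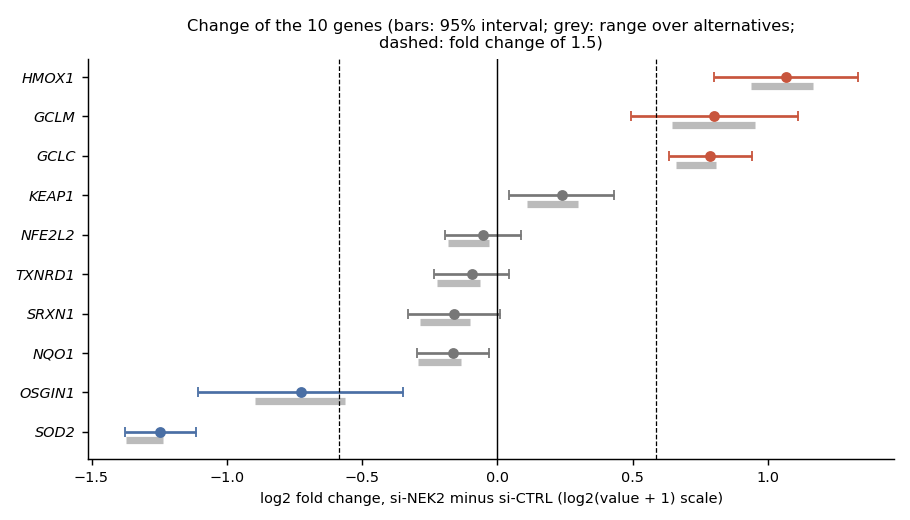
Log2 fold change of the 10 genes (x axis, si-NEK2 minus si-CTRL on the log2(value + 1) scale), ordered by size. Points and bars are the limma estimate with its 95% interval, red for higher, blue for lower and grey for genes that were not called. Grey bands are the range over the 17 alternative fits and dashed lines are a fold change of 1.5, which the band of OSGIN1 crosses while those of HMOX1, GCLM, GCLC and SOD2 do not.

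Levels of different genes were compared only per kilobase, as normalized counts divided by the length of the longest principal coding transcript of GENCODE. By the mean level per kilobase in si-CTRL cells the order was TXNRD1 (6098 ± 256, SD, n = 3), NQO1 (5619 ± 199.7), SRXN1 (3404 ± 267), KEAP1 (1267 ± 117), NFE2L2 (1239 ± 33.9), SOD2 (663 ± 6.85), GCLC (603 ± 23.0), HMOX1 (397 ± 56.2), GCLM (246 ± 51.3) and OSGIN1 (141 ± 32.2). TXNRD1 and NQO1 overlapped between libraries, since the lowest TXNRD1 library (5838) was below the highest NQO1 library (5849). KEAP1 and NFE2L2 also overlapped, so that neither pair has an order with the longest transcripts. With the shortest principal transcripts TXNRD1 was at 12399 per kilobase and NQO1 at 5619, and KEAP1 at 1414 and NFE2L2 at 1239. The place of SOD2 also depends on the transcript, since with the shortest principal transcripts it was second at 9548 per kilobase. The called genes were thus at lower levels per kilobase than the uncalled ones with the longest transcripts, but not with the shortest. In si-NEK2 cells GCLC (1041 ± 40.5), HMOX1 (829.5 ± 67.7) and GCLM (423 ± 6.80) were above SOD2 (279 ± 4.62) with the longest transcripts, but with the shortest SOD2 was at 4024 and above all 3.

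A ratio of 2 genes within a library does not depend on how libraries are scaled, and 5 such ratios were examined with an exact two-sided permutation test over libraries, which cannot go below 0.1 with 3 against 3. Nor can such a test show that a ratio stayed the same. GCLC and GCLM rose by similar amounts, with log2 fold changes of 0.79 and 0.80. Their ratio of normalized counts was 2.45, 1.86 and 1.63 in the si-CTRL libraries and 1.86, 2.00 and 1.94 in the si-NEK2 libraries, so that the si-NEK2 values lay within the range of the si-CTRL values (exact permutation p = 1, adjusted over the 5 ratios p = 1). The ratio of TXNRD1 to SRXN1 was between 2.51 and 2.82 in si-CTRL libraries and between 2.63 and 2.83 in si-NEK2 libraries, with overlap (exact permutation p = 0.3, adjusted p = 0.375).

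The other ratios did not overlap between the groups. HMOX1 relative to NQO1 was 0.0517, 0.0366 and 0.0450 in the si-CTRL libraries and 0.110, 0.0924 and 0.109 in the si-NEK2 libraries, that is 2.35 times higher in si-NEK2 cells. SOD2 relative to SOD1, the cytosolic copper-zinc dismutase, was 0.713, 0.613 and 0.585 in the si-CTRL libraries and 0.322, 0.350 and 0.368 in the si-NEK2 libraries. SOD1 itself went from 14934 ± 1380 normalized counts to 11525 ± 703 (each with its SD, n = 3), with a log2 fold change of -0.37 (limma, adjusted p = 0.00691), below a fold change of 1.5. NFE2L2 relative to KEAP1 was between 0.854 and 1.08 in si-CTRL libraries and between 0.706 and 0.824 in si-NEK2 libraries. For each of these 3 ratios the exact permutation p was 0.1, the smallest possible, and 0.167 after Benjamini-Hochberg adjustment over the 5 ratios, so that none passed.

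**Figure D3:**
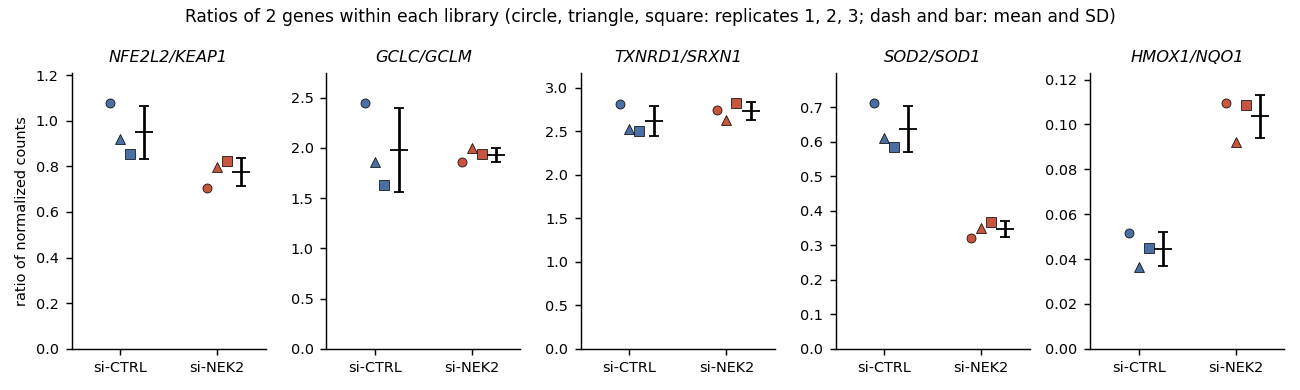
Ratios of normalized counts of 2 genes within each library (y axis, linear, from 0, with a scale of its own in each panel). Symbols are libraries and the dash and bar beside them are the mean and SD (n = 3). The ratios of GCLC to GCLM and of TXNRD1 to SRXN1 overlapped between si-CTRL and si-NEK2 libraries, whereas HMOX1 to NQO1 was higher and SOD2 to SOD1 and NFE2L2 to KEAP1 were lower in every si-NEK2 library.

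A further 80 genes of the antioxidant system, listed by role, were read from the same fit, and 73 of them were tested. Of these, 10 were higher (13.7%, against 8.23% of all genes tested) and 7 were lower (9.59%, against 14.3%), together 23.3% against 22.5%. Their median log2 fold change was 0.19, against 0.01 over all genes tested. By an adjusted p of at most 0.05 alone, 31 were higher and 13 were lower, together 60.3%, where all genes tested had 21.8% higher, 21.3% lower and 43.1% together. The 7 genes not tested were GPX2, GPX3, MGST1, MGST2, SOD3, AKR1C2 and ALDH3A1. Of these GPX3 and SOD3 had 0 reads throughout, a count that leaves room for up to 3 reads per library.

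The role of NRF2 regulators held 10 genes, among them the related factors NFE2L1 and NFE2L3. In this role 4 were lower and none was higher by both thresholds, against 14.3% lower and 8.23% higher of all genes tested. By the adjusted p alone 4 were lower and 3 were higher, against 21.3% and 21.8% of all genes tested. The 3 higher genes were CUL3, the ligase scaffold named above (0.42), its partner RBX1 (0.58) and BTRC (0.32). The row of RBX1 is shared with XPNPEP3, and BTRC is the substrate receptor of another ligase that acts on NRF2. BACH1, the repressor named above, had 2956, 3125.5 and 3263 normalized counts in the si-CTRL libraries and 1908, 1941 and 1984 in the si-NEK2 libraries. All si-NEK2 libraries were lower, with a log2 fold change of -0.68 (standard error 0.07, limma, adjusted p = 0.000122). MAFF, a small MAF partner, fell more, from 3526 ± 354 normalized counts to 1439 ± 28.0 (each with its SD, n = 3), with a log2 fold change of -1.29 (limma, adjusted p = 1.78e-05), while its relatives MAFG (0.17) and MAFK (0.36) were not called. NFE2L3, a factor related to NRF2, had a log2 fold change of -0.63 (limma, adjusted p = 0.000973), which was -0.53 and within a fold change of 1.5 without si-CTRL replicate 1. SQSTM1, which binds KEAP1 and withdraws it from NRF2, was the other gene called, at -0.60, and is named here because of the count although it ranked behind the others. It was at -0.53 without si-CTRL replicate 1, so that the calls of both NFE2L3 and SQSTM1 rest on this library.

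The other genes of glutathione were divided. Of 9 tested genes of cystine uptake and of glutathione synthesis, use, reduction and breakdown, none was called, against 22.5% of all genes tested. They were GSS, GSR, SLC7A11, SLC3A2, GPX1, GPX4, GPX8, GGT1 and CHAC1. By the adjusted p alone 3 passed, all lower, against 43.1% of all genes tested in either direction and 21.3% lower. These 3 were the cystine transporter SLC7A11 (-0.49), its partner SLC3A2 (-0.32) and CHAC1 (-0.42), which breaks glutathione down. The limma adjusted p of SLC3A2 reached 0.0704 when single libraries were left out. The log2 fold changes of the 9 genes were between -0.49 and 0.12. GPX8, the gene with the highest mean, was at 21441 ± 563 normalized counts (SD, n = 3) with si-CTRL and at 22046 ± 443 (SD, n = 3) with si-NEK2 (log2 fold change 0.04, limma, adjusted p = 0.605), and its sign changed with the scaling. All 6 tested glutathione transferases had positive log2 fold changes, between 0.083 and 0.82, as had 9548 of all 18717 genes tested. The lowest, GSTO1, changed sign with equal totals (-0.046) and quantile normalization (-0.032). It fell as low as -0.14 when single libraries were left out. By the adjusted p alone 4 of the 6 were higher. All genes tested had 21.8% higher by the adjusted p and 8.23% higher by both thresholds. GSTM4 was the 1 that also passed the fold change (0.82, limma, adjusted p = 0.000553), and its reads may be shared with close paralogs.

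Of 15 genes of the thioredoxin, peroxiredoxin and sestrin system, 3 were higher and none was lower by both thresholds, against 8.23% and 14.3% of all genes tested. By the adjusted p alone 7 were higher and 1 was lower, against 21.8% and 21.3% of all genes tested. The lower gene was the stress-induced sestrin SESN1 (-0.50). PRDX1, a cytosolic peroxiredoxin, had 29866, 45349 and 46013 normalized counts in the si-CTRL libraries and 69192, 73237 and 68502 in the si-NEK2 libraries. The groups were apart although si-CTRL replicate 1 lay far below the other control libraries, and the log2 fold change was 0.83 (standard error 0.15, limma, adjusted p = 0.0024). It was 0.62 without si-CTRL replicate 1. PRDX6 (0.72, limma, adjusted p = 0.00032) and TXNIP, the inhibitor of thioredoxin (0.65, adjusted p = 7.43e-05), were the others called higher. The call of PRDX6 ended with quantile normalization (0.58), and that of TXNIP with upper quartile scaling (0.58), equal totals (0.52) and quantile normalization (0.52).

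IDH1, the cytosolic isocitrate dehydrogenase that supplies NADPH, had the highest log2 fold change of the 73 tested genes. It had 2391, 2425 and 2479 normalized counts in the si-CTRL libraries and 5942, 6076 and 6110.3 in the si-NEK2 libraries, with a log2 fold change of 1.31 (standard error 0.06, limma, adjusted p = 4.16e-06). It was the 1 gene called of 6 that supply NADPH (16.7%), against 22.5% of all genes tested. Of 8 genes of heme and iron handling, 2 were higher (25%) and none was lower, against 8.23% and 14.3% of all genes tested. They were FECH (0.77, limma, adjusted p = 0.000563), which inserts iron into heme, and the porphyrin transporter ABCB6 (0.73, adjusted p = 0.000576), whose row is shared with ATG9A. FTH1, the ferritin heavy chain, had 0.57 and was just within a fold change of 1.5, in a row shared with CPSF7.

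Of 9 tested genes that reduce quinones, carbonyls and aldehydes, 2 were higher (22.2%) and 1 was lower (11.1%), against 8.23% and 14.3% of all genes tested. AKR1B1, aldose reductase, rose from 25225 ± 3725 normalized counts to 56895 ± 3192 (each with its SD, n = 3), a log2 fold change of 1.18 (limma, adjusted p = 7.11e-05). AKR1A1 also rose (0.75, adjusted p = 0.000345), whereas AKR1C1, whose reads may be shared with its near-identical paralogs, fell (-1.02, adjusted p = 0.00636). Of 8 genes of conjugation and export, 1 was higher (12.5%) and 2 were lower (25%), against the same shares of all genes tested. The transporter ABCC5 rose (0.68, limma, adjusted p = 0.000118), a call that ended with equal totals (0.55) and quantile normalization (0.56). ABCC2 (-0.86, adjusted p = 0.000201) and ABCC3 (-0.77, adjusted p = 0.0013) fell. Each role thus held genes that were not called, and called genes moved in both directions in the last 2 roles. By the adjusted p alone, both directions were also present among the regulators, in the thioredoxin system and in the removal of superoxide and peroxide.

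**Figure D4:**
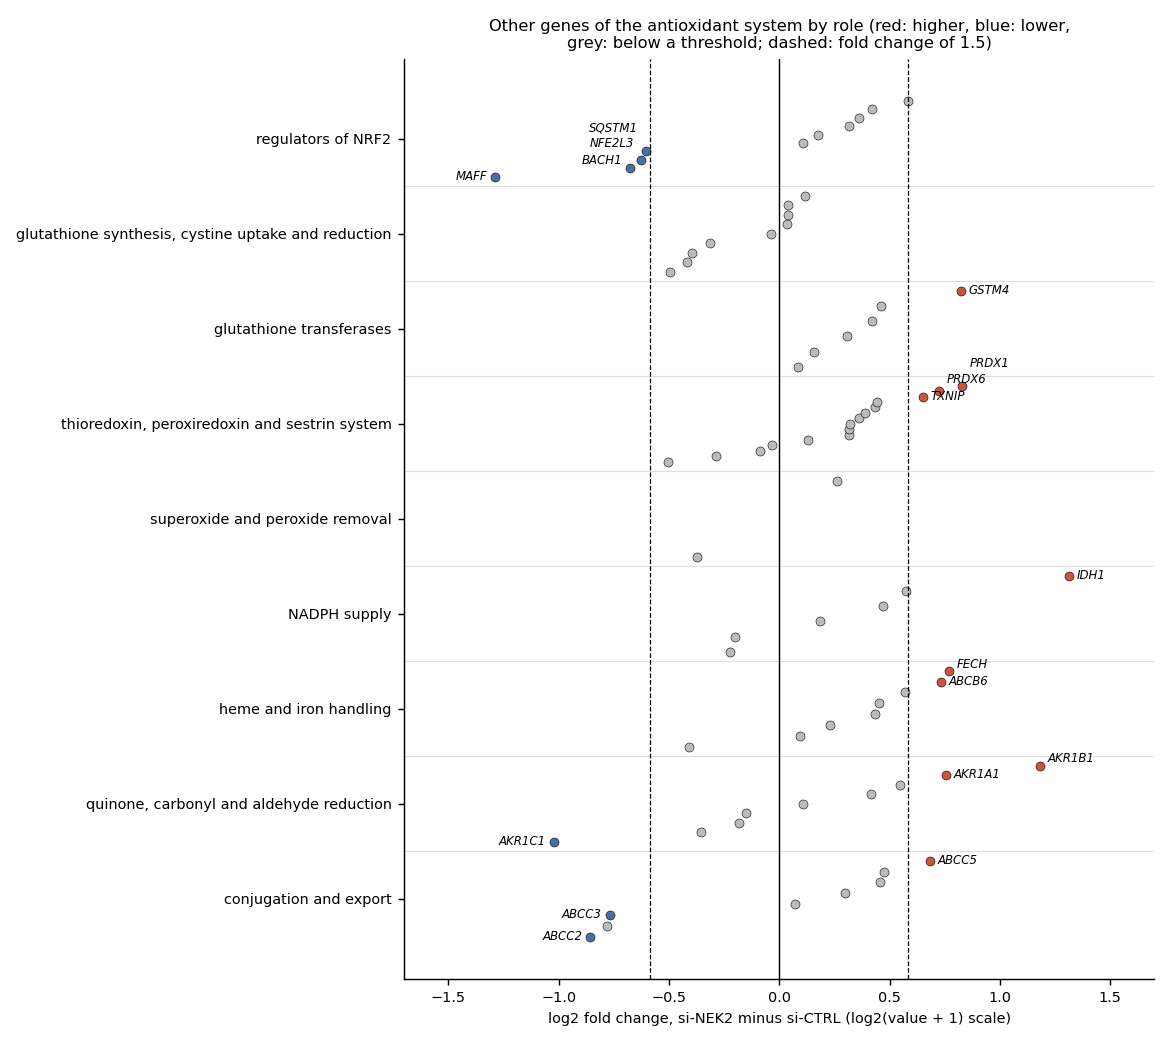
Log2 fold change (x axis, si-NEK2 minus si-CTRL on the log2(value + 1) scale) of the 73 tested genes by role, each point being a gene. Named red points were higher (10 genes) and named blue points lower (7 genes), and grey points missed a threshold. Dashed lines are a fold change of 1.5. The role of regulators, which includes the related factors NFE2L1 and NFE2L3, holds 4 of the 7 lower genes.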

How the data were processed

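PolyA-selected RNA of MDA-MB-231 cells, 3 si-CTRL and 3 si-NEK2 libraries (TruSeq Stranded mRNA kit), was sequenced. The submitters' processing notes name STAR 2.4.0, SAMtools, Picard, FastQC, DESeq2 and hg19. The counter and its strand setting are not given in the sources used here, so that overlapping genes may share reads. Per gene and library, the deposited signal is the read number over the DESeq2 size factor, with FAST DB annotation and replicates not pooled. Values were whole multiples of 1 read (within 0.01 reads) in 100% of cases, so that reads could be recovered. Floors of 3 reads cover counting error only.

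Libraries were grouped by their titles. Where a symbol had several rows, the row with the highest mean was used. Genes with a mean of at least 10 were fitted with limma 3.58.1 (R 4.3.3) on log2(value + 1) with an intensity trend, and p-values were adjusted over all genes by Benjamini and Hochberg. On this scale, changes of rarely read genes come out too small. Ratios were tested with scipy 1.17.1. The members and lists were chosen with earlier results of these data known, and no list was tested as a set. Of the further list, the text names up to 3 called genes per role with an adjusted p of at most 0.05 and the largest changes, or the most abundant gene where none was called. Genes named beside these were chosen after their values were seen. Scripts were tested on simulated data. The alternatives were other pseudocounts (0.1 and 5), filters (none, or a mean of at least 50), scalings, thresholds and samples, eBayes without a trend, a replicate block, and edgeR 4.0.16 and DESeq2 1.42.0 on recovered reads.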

Additional observations from a re-analysis of the deposited data

How the results depend on the processing

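The call of HMOX1, GCLC, GCLM and SOD2 and the log2 fold change of NEK2 (from -3.45 to -3.19) held under all 17 alternative fits. Over the 28 genes named by rule, 464 of 476 alternative values kept direction and call, 9 kept direction but missed a threshold, and 3 reversed, all for GPX8, at -0.026 with upper quartile scaling, -0.088 with equal totals and -0.10 with quantile normalization. OSGIN1 was -0.56 with quantile normalization, so that 1 gene of the 10 was lower in place of 2. A fold change of at least 2 left by construction 1637 genes in all, 2 of the 10 genes (1 higher, HMOX1, and 1 lower, SOD2) and 4 of the further list (2 higher and 2 lower). When single libraries were left out, the genes called numbered from 3913 to 4436, those of the 10 genes from 4 to 5 (3 higher in each, and from 1 to 2 lower), and those of the further list from 17 to 20 (from 10 to 13 higher, and 7 or 8 lower). The ratio of GCLC to GCLM, with a log2 difference of -0.01, ranged from -0.14 to 0.15 when libraries were left out, with 0.15 without si-CTRL replicate 1 and 0.013 without si-NEK2 replicate 1. With equal totals the median of all genes moved to -0.11 and 21.3% of calls were higher in place of 36.6%, and with quantile normalization 45.9%. NFE2L2 was at -0.18 (limma, adjusted p = 0.0442) with equal totals, within a fold change of 1.5.

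Same-numbered libraries showed no common deviation (correlations across genes of -0.09, 0.05 and -0.15), and libraries of unlike number had correlations from -0.12 to 0.18. These values show no sign of pairing by number, but with 3 libraries per group they cannot exclude it. With the replicate number as a block, 4084 genes and 5 of the 10 genes were called. Depth was not the limit for the 10 genes, the rarest of which had at least 177 reads in each library.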
